A study of Mus musculus with 6 samples.

Results

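The enzymes that build, sulfate and trim glycosaminoglycans were followed through the transcripts of 40 genes in cells grown on 2 metal scaffolds. They were chosen by symbol as enzymes of heparan sulfate, chondroitin and dermatan sulfate and hyaluronan synthesis, by a rule that uses no measured value. Earlier results of these data were, however, known when the genes were chosen. All 40 were on the array, with 47 probes, and 39 of them, with 45 probes, could be tested, among 15535 genes tested in all. The remaining gene, Hs3st3b1, was not well above background on any array. RNA came from MC3T3-E1 cells, an established mouse line of osteoblast precursors, kept on scaffold in 24-well plates for 3 days. The De-HA group (n = 3) grew on a scaffold called De-HA in the labels, which is the FeMnSi scaffold after dealloying and coating. The reference group, FeMnSi (n = 3), had the original scaffold of iron, manganese and silicon alloy. Both groups are the same cell line, for which the labels name no genetic change, and both were taken on day 3; every sample has its own single-colour Agilent array. The labels do not tie the replicates to separate cultures, and p-values rest on the spread of these 6 samples alone, and that spread may be technical.

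Glycosaminoglycans are long unbranched sugar chains of the cell surface and the extracellular matrix. Heparan sulfate and chondroitin sulfate chains start from the same short sugar linker on a serine of a proteoglycan core protein, and the next sugar added commits the chain to one type or the other. Sulfotransferases and epimerases then modify the growing chain, and the resulting pattern of sulfate groups sets which growth factors the chain can hold. Hyaluronan differs in that it has no core protein and no sulfate and is extruded through the plasma membrane by its synthases. Bone cells surround themselves with such chains while matrix is laid down and mineralised.

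Levels are given for each array as log2 signal relative to the 75th percentile of that array, so that 0 is the 75th percentile, and a level says nothing about the level of another probe. Differences are log2 fold changes, De-HA minus FeMnSi, with their standard error from limma, and adjusted p is limma's p after Benjamini-Hochberg adjustment over all 15535 genes, called below 0.05. Between 63.5% and 74.4% of probes were well above background on an array, the 75th percentile of the signal lay between 582 and 720, and no spot was saturated. Slides were inferred from the scan times in the file headers alone, since the labels name no batch. These times place the 3 De-HA arrays together with FeMnSi 1 (slide 1) and FeMnSi 2 together with FeMnSi 3 (slide 2). The called differences of members are therefore also given within slide 1, where it is the De-HA mean minus the single array FeMnSi 1. With the slide as a block the fold change is the same number, and FeMnSi 2 and 3 add only to the estimate of the spread. Over all genes tested the median log2 fold change was 0.10 with the 75th percentile scaling and -0.01 with quantile normalization, so a small fold change can take its sign from the scaling. Of the calls over all genes, 60.1% were higher with the first scaling, 39.3% with quantile normalization, 37.3% with median scaling and 41.3% in the authors' series matrix.

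Of the 39 enzyme genes tested, 3 were higher on De-HA and 0 lower: Has1, a hyaluronan synthase, Xylt2, which starts the linker, and Csgalnact1, which commits a chain to chondroitin. That is 7.69% of the members, where 10.7% of all genes were called, 6.46% higher and 4.29% lower. At an unadjusted p under 0.05, limma had 10 members higher and 4 lower, where 22.8% of all genes were higher and 10.7% lower, so the members' counts (25.6% and 10.3%) are near the share of all genes, and the unadjusted counts of the groups are to be read against the same shares. Values of the De-HA and FeMnSi arrays did not overlap for 16 of the 39 members (41.0%), against 39.1% of all genes. The members' median log2 fold change was 0.08, against 0.10 for all genes, and their fold changes ran from -0.41 for B3galt6 to 0.89 for Hs2st1. The 95% interval lay within a 2-fold change for 36 of the 39 members, all but Hs2st1, Chsy3 and Has1, and within a 1.5-fold change for 25. With the slide as a block 0 members and 1.16% of all genes passed, and limma had 5 members higher and 2 lower at an unadjusted p under 0.05. These are bulk RNA measurements, in which more cells of one kind and more RNA per cell cannot be told apart.

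**Figure D1:**
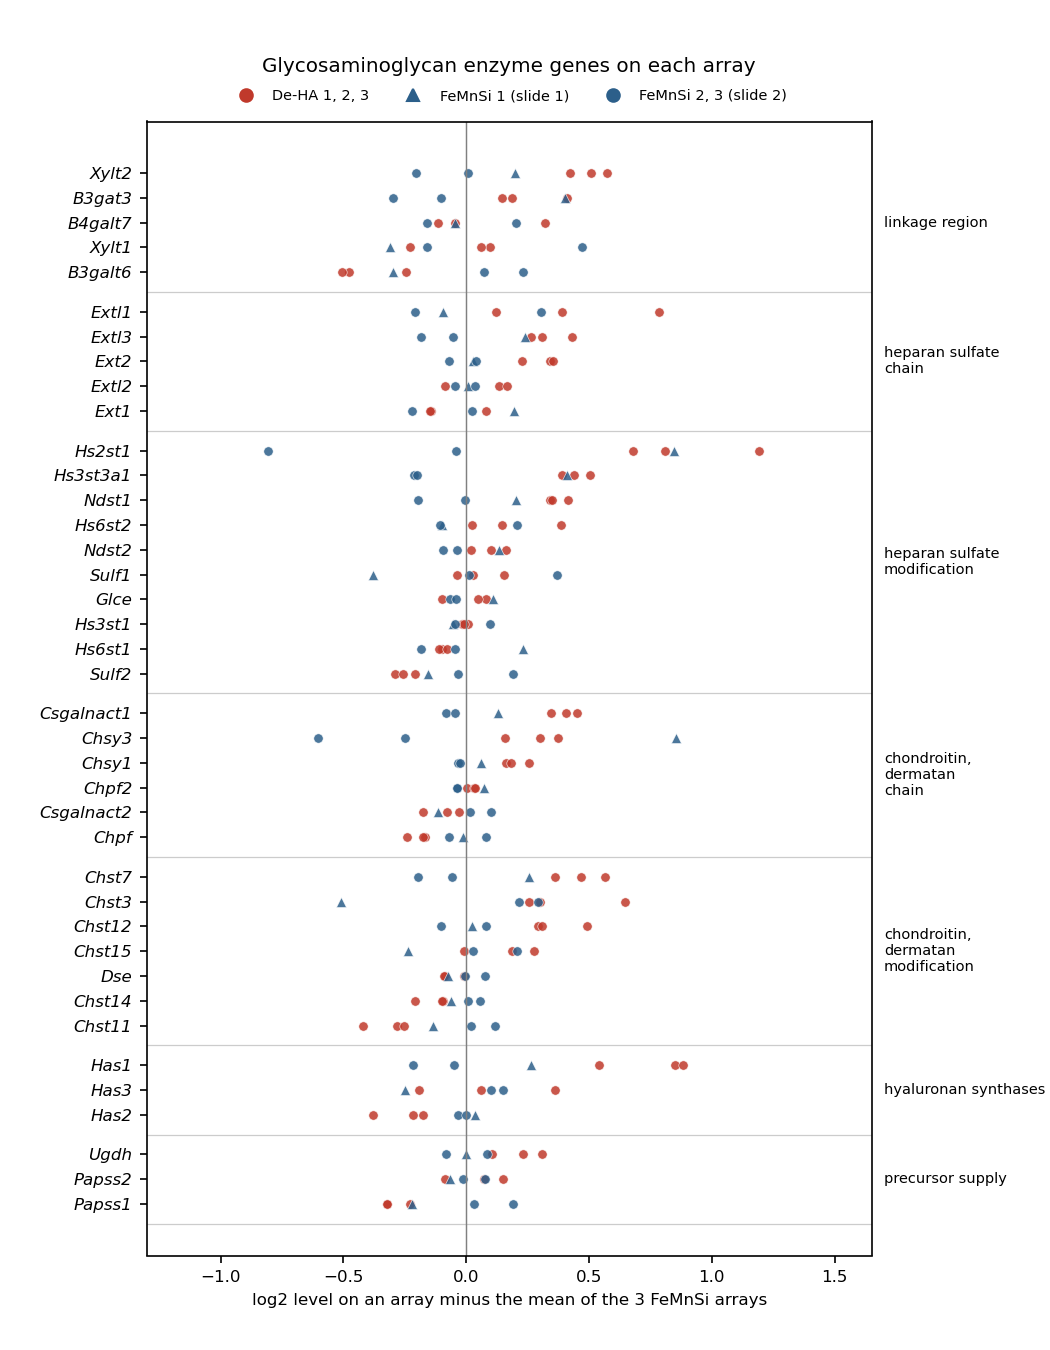
Log2 level of each tested glycosaminoglycan enzyme gene on each of the 6 arrays, minus the mean of the 3 FeMnSi arrays of that gene; red points are De-HA arrays, the blue triangle is FeMnSi 1 and blue circles are FeMnSi 2 and 3. For Has1, Xylt2 and Csgalnact1 all 3 De-HA points lie to the right of all 3 FeMnSi marks, while for Hs2st1, Hs3st3a1 and Chsy3 the triangle lies away from the blue circles.

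**Figure D2:**
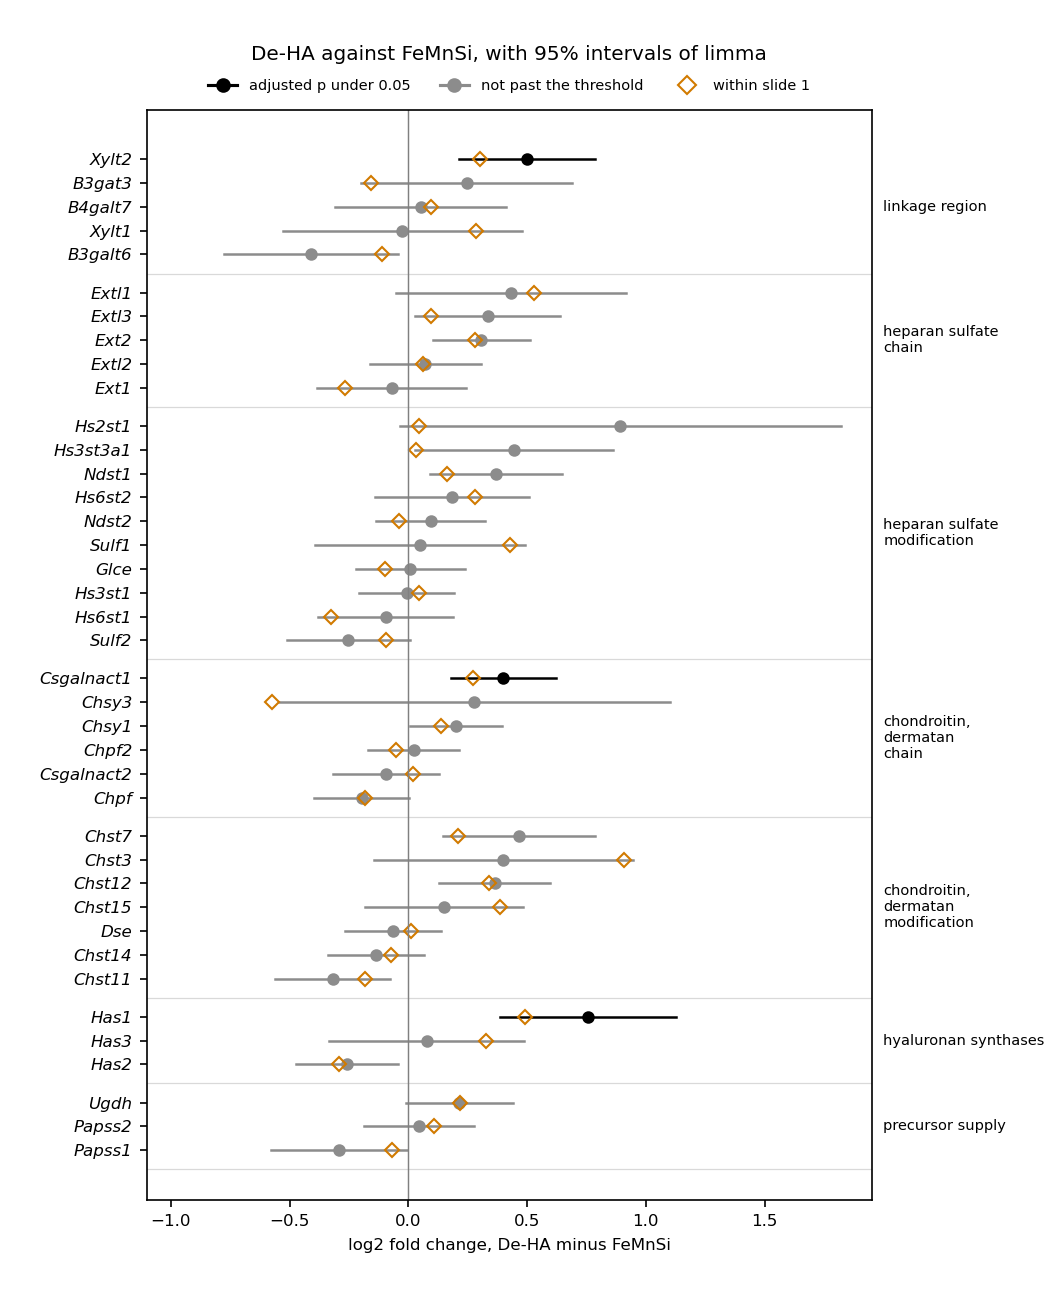
Log2 fold change (De-HA minus FeMnSi) of the 39 tested members with limma's 95% interval, by step of synthesis; black marks an adjusted p under 0.05 and the open diamond is the difference within slide 1. The 3 black points, Xylt2, Csgalnact1 and Has1, lie right of 0, and their diamonds lie right of 0 too, nearer to it than the points.

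Among the 3 hyaluronan synthases, Has1 rose on De-HA, while Has2 lay lower on every De-HA array without passing the threshold and Has3 overlapped between the groups. Has1 read -4.02, -4.33 and -3.99 on De-HA, against -4.60, -5.09 and -4.92 on FeMnSi, here and throughout in the order of replicates 1, 2 and 3. Every De-HA array was above every FeMnSi array, and the highest FeMnSi value was that of FeMnSi 1. The log2 fold change was 0.76 ± 0.16 (SE, 1.69-fold; adjusted p = 0.0318, limma), and 0.49 within slide 1 (adjusted p = 0.208 with the slide block). The probe was dim, with processed signals of 32.5 to 38.5 on De-HA and 21.2 to 26.9 on FeMnSi, though above background on each of the 6 arrays, and after a normexp background correction the fold change was 0.34 (adjusted p = 0.0562, limma). With each array left out in turn, Has1 passed in 1 of 6 fits, that without FeMnSi 1, with adjusted p from 0.0127 to 0.116.

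Has2, the main hyaluronan synthase of many mesenchymal cells, read 1.37, 1.57 and 1.53 on De-HA, against 1.78, 1.72 and 1.75 on FeMnSi. The De-HA arrays were all below the FeMnSi arrays, FeMnSi 1 included. Its log2 fold change was -0.26 ± 0.09 (SE; adjusted p = 0.105, limma) and -0.29 within slide 1. With quantile normalization it was -0.34 and passed (adjusted p = 0.0428, limma), and it passed in the authors' series matrix as well (-0.34, adjusted p = 0.047). Has3 read -3.78, -4.33 and -4.08 on De-HA, against -4.39, -3.99 and -4.04 on FeMnSi, with the arrays of the groups interleaved. Its fold change, 0.08 ± 0.17 (SE; adjusted p = 0.772, limma), became -0.06 with quantile normalization and -0.01 with median scaling. The difference between the responses of Has1 and Has2 was not tested.

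The bases before the Has1 start site are shown because Has1 is the member with the largest called difference. They are the 250 bases upstream of the start in RefSeq on GRCm38.p6, chr17:17855189-17855438, minus strand, written 5′ to 3′, with a CCAAT box in capitals.
Has1: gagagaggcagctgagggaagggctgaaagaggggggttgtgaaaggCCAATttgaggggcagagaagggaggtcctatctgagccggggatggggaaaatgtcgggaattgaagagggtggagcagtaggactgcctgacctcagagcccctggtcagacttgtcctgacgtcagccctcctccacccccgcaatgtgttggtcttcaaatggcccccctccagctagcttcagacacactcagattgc
The window holds 1 CCAAT on the strand given, no GC box (GGGCGG) and no TATA box (TATAAA) on either strand, and 58.0% of its bases are G or C. Among the 27025 genes with such a window, 37.5% hold a CCAAT on either strand, 35.4% a GGGCGG and 14.3% a TATAAA. A match is a description of the letters and not a site.

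Among the 5 genes of the linker, Xylt2 was higher and the other 4 did not pass. Xylosyltransferases put the first xylose on the core protein. Xylt2 read 2.55, 2.70 and 2.63 on De-HA, against 2.32, 1.92 and 2.13 on FeMnSi, with no overlap. The log2 fold change was 0.50 ± 0.12 (SE, 1.41-fold; adjusted p = 0.0461, limma), and 0.30 within slide 1 (adjusted p = 0.295 with the slide block). A second Xylt2 probe, with processed signals of 132.8 to 170.5, gave -0.02 ± 0.09 (SE), so the probes of this gene did not give the same result; with the mean of both probes the gene was at 0.24 (adjusted p = 0.104, limma). Single probes were tested over 28175 probes, of which 6.91% were called, and there the brighter Xylt2 probe had an adjusted p of 0.0596. When single arrays were left out, the gene passed in 1 of 6 fits, again the one without FeMnSi 1.

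Xylt1, the other xylosyltransferase, read -4.40, -4.72 and -4.43 on De-HA, against -4.80, -4.02 and -4.65 on FeMnSi. Its arrays were interleaved and its fold change was -0.02 ± 0.21 (SE; adjusted p = 0.944, limma), or 0.29 within slide 1. The 3 enzymes that finish the linker followed no common direction. B4galt7, which adds the first galactose, was at 0.05, B3galt6, which adds the second, at -0.41 (adjusted p = 0.122), and B3gat3, which adds the closing glucuronic acid, at 0.25 (adjusted p = 0.373, limma). Within slide 1 the fold changes of B3galt6 and B3gat3 were -0.11 and -0.16.

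The same stretch is shown for Xylt2, the other called member with an entry in the RefSeq table of promoters, which has 31 of the 40 members and does not list Csgalnact1. It is chr11:94677494-94677743 on GRCm38.p6, minus strand, 5′ to 3′, with GC boxes (GGGCGG, or CCGCCC where the box is on the other strand) in capitals.
Xylt2: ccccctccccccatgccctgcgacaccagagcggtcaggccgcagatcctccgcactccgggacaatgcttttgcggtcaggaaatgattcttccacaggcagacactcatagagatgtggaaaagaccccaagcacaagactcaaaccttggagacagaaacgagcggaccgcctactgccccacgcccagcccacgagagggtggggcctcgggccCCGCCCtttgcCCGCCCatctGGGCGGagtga
This window has 1 GC box on the strand given and 2 on the other, all near the start site, and neither CCAAT nor TATAAA; 63.2% of it is G or C. Of the 31 members with a window, 22 (71%) hold a GC box, 16 (51.6%) a CCAAT and 2 (6.45%) a TATAAA. Among all 27025 genes with a window the shares are 35.4%, 37.5% and 14.3%. Those genes are not only the ones tested here, and a difference from the members was not tested. The Has1 and Xylt2 windows thus share none of the 3 motifs.

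Heparan sulfate chain formation showed 0 of 5 genes past the threshold, with 2 at an unadjusted p under 0.05 in limma, both higher. Ext1, which with Ext2 forms the polymerase that lengthens the chain, read -0.59, -0.82 and -0.82 on De-HA, against -0.48, -0.65 and -0.89 on FeMnSi. These overlapped, and the fold change was -0.07 ± 0.13 (SE; adjusted p = 0.727, limma). Its partner Ext2 lay above the FeMnSi arrays on every De-HA array, at 0.31 ± 0.09 (SE; adjusted p = 0.0647, limma) and 0.28 within slide 1, and passed in the fit with an intensity trend. Extl3, which starts the chain on the linker, also had no overlap between groups and was at 0.33 ± 0.13 (SE; adjusted p = 0.125, limma), but 0.09 within slide 1. Extl1 was at 0.43 and Extl2 at 0.07, and both overlapped. The median of the 5 genes was 0.31, and 0.09 within slide 1.

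Heparan sulfate modification also had 0 of 10 genes called, 2 of them higher at an unadjusted p under 0.05 in limma. The clearest case by probe was Ndst1, whose enzyme swaps acetyl for sulfate on glucosamine and so opens the way for the later modifications. Its brightest probe, which stands for the gene, read 0.62, 0.55 and 0.56 on De-HA, against 0.41, 0.01 and 0.20 on FeMnSi, a fold change of 0.37 ± 0.12 (SE; adjusted p = 0.0863, limma). Another Ndst1 probe read -1.02, -1.01 and -1.09 on De-HA, against -1.64, -1.99 and -1.60 on FeMnSi, and passed among single probes with 0.70 ± 0.13 (SE; adjusted p = 0.0278, limma). The remaining probe read -1.90, -1.88 and -2.04 on De-HA, against -2.72, -2.27 and -2.28 on FeMnSi, with 0.48 ± 0.14 (SE; adjusted p = 0.0844, limma). On each of these probes all De-HA arrays were above all FeMnSi arrays. With the mean of the 3 probes the gene was at 0.52 (adjusted p = 0.0179, limma). By its brightest probe, limma's adjusted p was 0.536 with the slide block and 0.117 with quantile normalization. With each array left out in turn, that probe passed in 1 of 6 fits, the one without FeMnSi 1. Within slide 1 the 3 probes, in the same order, were at 0.16, 0.60 and 0.78. Among single probes of members, only this Ndst1 probe and that of Has1 (adjusted p = 0.0407) passed, 2 of 45.

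**Figure D3:**
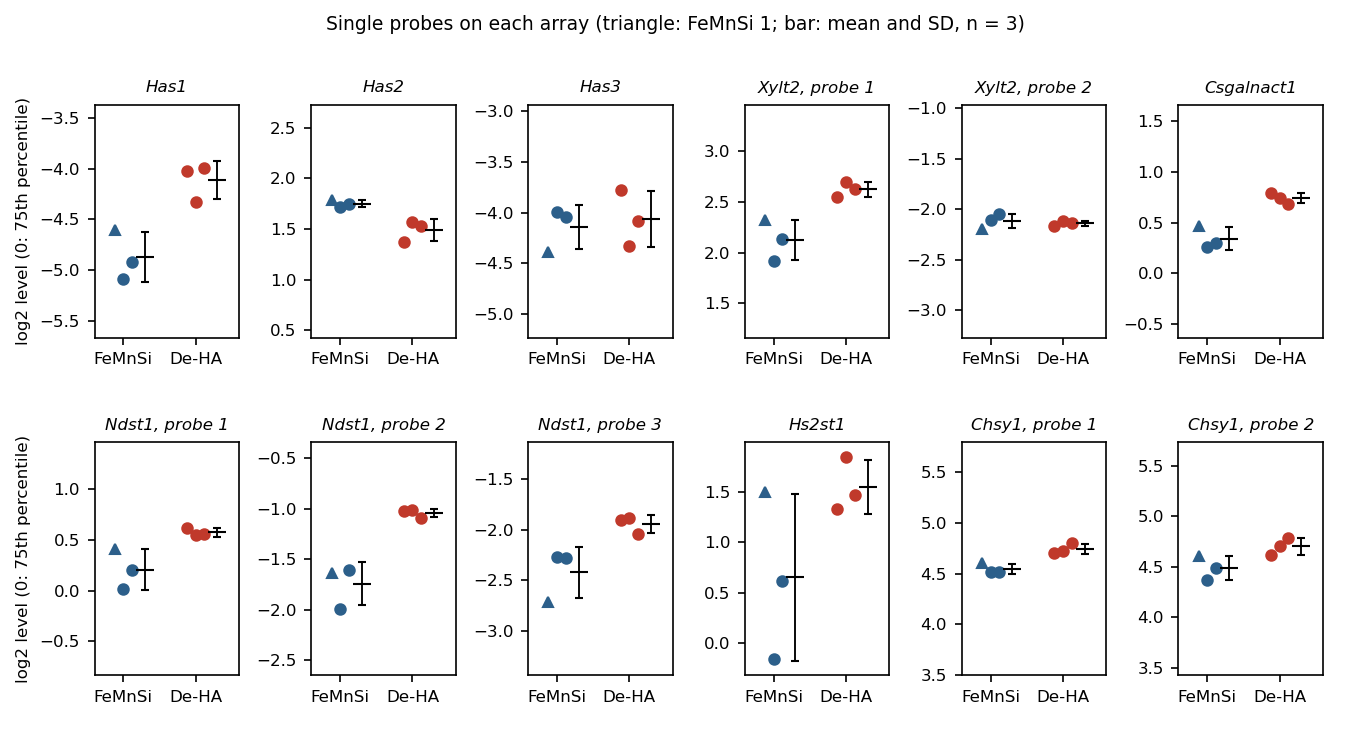
Log2 level of single probes on each array for Has1, Has2, Has3, Xylt2, Csgalnact1, Ndst1, Hs2st1 and Chsy1, where 0 is the array's 75th percentile; bars are the mean and SD of 3 arrays, the triangle is FeMnSi 1, and every panel spans the same number of log2 units. The 3 Ndst1 probes each keep the groups apart, while only the brighter Xylt2 probe does, and in the Hs2st1 panel FeMnSi 1 lies among the De-HA arrays.

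Hs2st1, the 2-O-sulfotransferase of the uronic acid, had the largest fold change of any member, 0.89 ± 0.39 (SE), with an adjusted p of 0.159 in limma. It read 1.33, 1.85 and 1.46 on De-HA, against 1.50, -0.15 and 0.61 on FeMnSi. FeMnSi 1 lay within the De-HA arrays, and within slide 1 the difference was 0.05. The same order was seen for Hs3st3a1, a 3-O-sulfotransferase, which read -4.43, -4.38 and -4.32 on De-HA, against -4.41, -5.03 and -5.02 on FeMnSi. There the fold change was 0.45 ± 0.18 (SE; adjusted p = 0.133, limma), and 0.03 within slide 1. Its near relative Hs3st3b1, whose catalytic domain is nearly identical, gave processed signals of 2.4 to 5.6, not well above background on any array.

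The sulfatases Sulf1 and Sulf2 act after secretion and clip 6-O-sulfates off finished heparan sulfate. Sulf2 read 2.18, 2.10 and 2.13 on De-HA, against 2.23, 2.58 and 2.36 on FeMnSi. The De-HA arrays were all lower, and the fold change was -0.25 ± 0.11 (SE; adjusted p = 0.157, limma), or -0.10 within slide 1. Sulf1 was near the limit of detection, with 1 probe well above background on 2 De-HA arrays and 1 FeMnSi array and the other probe on none. The measured probe read -5.63, -5.69 and -5.50 on De-HA, against -6.03, -5.29 and -5.64 on FeMnSi, which overlapped, and its fold change of 0.05 ± 0.19 (SE; adjusted p = 0.869, limma) was -0.18 with quantile normalization. The other modifiers lay between -0.10 and 0.18, none apart between groups. They were Ndst2 at 0.09, the 6-O-sulfotransferases Hs6st1 at -0.10 and Hs6st2 at 0.18, the 3-O-sulfotransferase Hs3st1 at -0.01 and Glce, the epimerase that turns glucuronic into iduronic acid, at 0.01.

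On the chondroitin and dermatan side, Csgalnact1 was the only one of 6 chain-forming genes called. Its enzyme adds the first N-acetylgalactosamine to the linker. Csgalnact1 read 0.79, 0.75 and 0.69 on De-HA, against 0.47, 0.26 and 0.30 on FeMnSi. The groups did not overlap, and again FeMnSi 1 was the highest FeMnSi array. The log2 fold change was 0.40 ± 0.09 (SE, 1.32-fold; adjusted p = 0.0423, limma), and 0.27 within slide 1 (adjusted p = 0.257 with the slide block). Of the 6 fits with an array left out, it passed in 1, the fit without FeMnSi 1, and it missed the threshold with quantile normalization (adjusted p = 0.0533, limma). Csgalnact2, which does the same step, was at -0.09 with overlapping arrays.

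Chsy1, a chondroitin polymerase, read 4.71, 4.73 and 4.80 on De-HA, against 4.61, 4.51 and 4.52 on FeMnSi. The groups were apart on both of its probes, with fold changes of 0.20 and 0.21, but the gene did not pass (0.20 ± 0.08, SE; adjusted p = 0.142, limma) and its sign turned with quantile normalization (-0.04). Chsy3, its relative, had the widest FeMnSi spread of the chondroitin genes. It read -3.82, -3.68 and -3.61 on De-HA, against -3.13, -4.58 and -4.23 on FeMnSi. FeMnSi 1 lay above and FeMnSi 2 and 3 below all De-HA arrays, so that the fold change was 0.28 ± 0.35 (SE; adjusted p = 0.591, limma) over all arrays and -0.58 within slide 1. The polymerising factors Chpf and Chpf2 were at -0.20 (adjusted p = 0.155) and 0.02; Chpf was lower on every De-HA array.

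Of the 7 genes that modify chondroitin and dermatan chains, 0 passed, with 2 higher and 1 lower at an unadjusted p under 0.05 in limma. Chst11 and Chst12 are among the enzymes that sulfate position 4 of N-acetylgalactosamine. They lay on opposite sides of 0. Chst11 read -2.44, -2.58 and -2.41 on De-HA, against -2.30, -2.04 and -2.14 on FeMnSi, all De-HA arrays lower, with -0.32 ± 0.10 (SE; adjusted p = 0.0876, limma) and -0.18 within slide 1. Chst12 read 1.53, 1.72 and 1.54 on De-HA, against 1.26, 1.13 and 1.31 on FeMnSi, all De-HA arrays higher, with 0.36 ± 0.10 (SE; adjusted p = 0.0613, limma) and 0.34 within slide 1. Chst12 passed with a normexp correction, with a trend and when every array had to be well above background. The difference between Chst11 and Chst12 was not tested.

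Sulfation at position 6 is made by Chst3 and Chst7. Chst7 was higher on every De-HA array, at 0.46 ± 0.13 (SE; adjusted p = 0.0701, limma) and 0.21 within slide 1. For Chst3 the array that stood out was again FeMnSi 1, in the other direction. It read -1.70, -1.31 and -1.66 on De-HA, against -2.47, -1.67 and -1.74 on FeMnSi, so the fold change of 0.40 ± 0.23 (SE; adjusted p = 0.249, limma) was 0.91 within slide 1. Chst15, which adds a further sulfate to a 4-sulfated unit, was at 0.15 on 1 probe and 0.24 on the other. The dermatan enzymes Chst14 and Dse, the sulfotransferase and the epimerase, were at -0.13 and -0.06, and Chst14 was lower on all De-HA arrays.

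Precursor supply had 0 of 3 genes past the threshold, with 1, Papss1, lower at an unadjusted p under 0.05 in limma. Ugdh, which makes the UDP-glucuronic acid used by all these chains, read 4.01, 4.22 and 4.14 on De-HA, against 3.90, 3.83 and 3.99 on FeMnSi. The De-HA arrays were all higher, by 0.21 ± 0.10 (SE; adjusted p = 0.162, limma) and 0.22 within slide 1, but by 0.01 with quantile normalization. The synthases of the sulfate donor, Papss1 and Papss2, were at -0.29 (adjusted p = 0.146) and 0.04; Papss1 was lower on all De-HA arrays, with -0.07 within slide 1.

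By step of synthesis, the median log2 fold change was 0.05 for the linker, 0.31 and 0.07 for heparan sulfate chains and their modification, 0.11 and 0.15 for chondroitin and dermatan chains and their modification, 0.08 for hyaluronan synthases and 0.04 for precursor supply. With quantile normalization the medians of heparan sulfate chains and of chondroitin and dermatan modification stayed above 0, at 0.18 and 0.13, and the other 5 lay between -0.06 and -0.02. The number of members called moved with single arrays. Without FeMnSi 1, 15 members passed, 12 higher and 3 lower, which include Has1, Xylt2 and Csgalnact1, where 29.7% of all genes passed; De-HA then lies on slide 1 and FeMnSi on slide 2, and slide and scaffold cannot be told apart. Leaving out any other single array left 0 members past the threshold in limma, with 7 or 8 higher and 0 to 2 lower at an unadjusted p under 0.05. FeMnSi 1 was nearer to the De-HA mean than to the mean of FeMnSi 2 and 3 for 23 of 39 members (59%), against 54.5% of all genes. It lay inside the range of the De-HA arrays for 10 of 39 members (25.6%), against 34.9% of all genes. The median SD of a member was 0.0984 over De-HA arrays and 0.186 over FeMnSi arrays, and 0.113 and 0.156 over all genes.

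**Figure D4:**
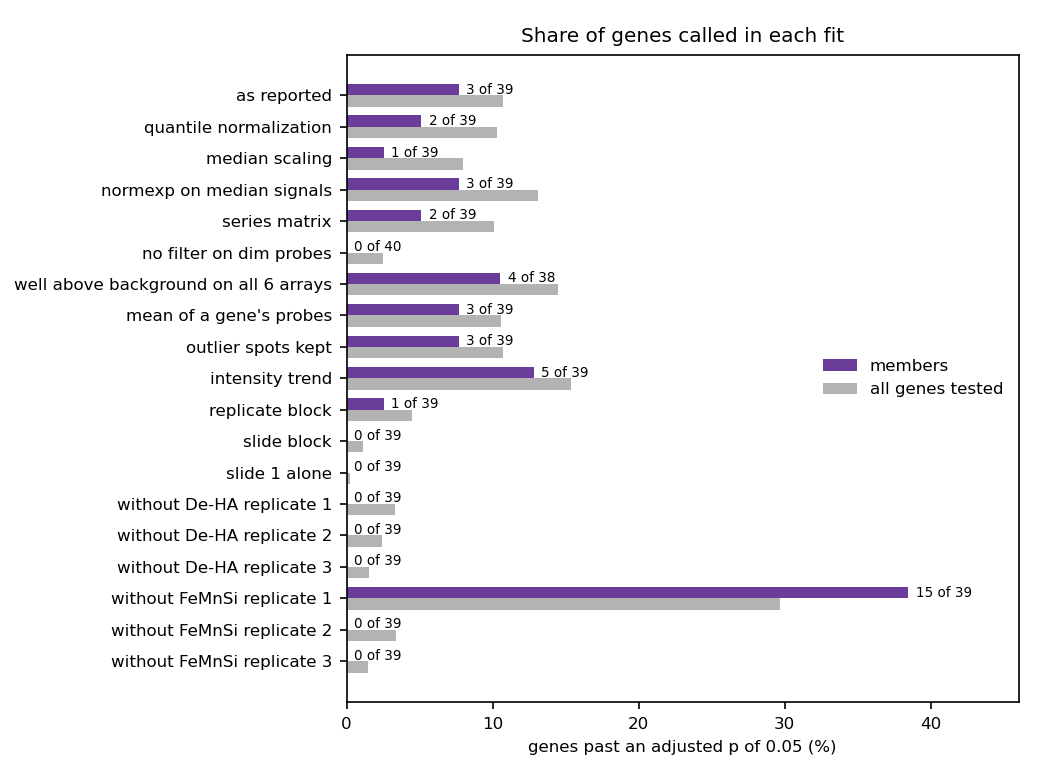
Percent of genes past an adjusted p of 0.05 in limma, for the members (purple) and all genes tested (grey), as reported and under each other way of processing; the labels give members called of members tested. The members' share is below that of all genes in every fit shown but the one without FeMnSi replicate 1, where 15 of 39 passed. The members called are few: 3 of 39 as reported, where 10.7% of all genes passed. With the slide block 0 of 39 were called, where 1.16% of all genes passed. All fits reuse the same arrays and are not separate evidence, and a difference in share was not tested.

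Genes elsewhere in the pathway were counted in the same fit. Of 19 tested genes of glycosaminoglycan breakdown and hyaluronan binding, 5 were lower and 0 higher in limma, 26.3% where 4.29% of all genes were lower (median 0.04; at an unadjusted p under 0.05, 7 lower and 4 higher). Hpse, heparanase, which cuts heparan sulfate chains, read -3.82, -3.61 and -3.85 on De-HA, against -3.02, -2.86 and -2.86 on FeMnSi. The groups were well apart, and the fold change was -0.85 ± 0.10 (SE; adjusted p = 0.00811, limma), -0.74 within slide 1 (adjusted p = 0.0622 with the slide block), with an adjusted p under 0.05 in all 6 fits that leave out an array. The other Hpse probe was not well above background on any array and was not tested. Arsb, which removes 4-sulfate from chondroitin and dermatan sulfate, fell by 0.97 on the log2 scale (adjusted p = 0.0239), while its other probe was at -0.25 (adjusted p = 0.119 among single probes); Naglu, a glycosidase of heparan sulfate breakdown, by 0.54 (adjusted p = 0.0251) and Gusb, beta-glucuronidase, by 0.47 (adjusted p = 0.0379, limma). The fifth, Hmmr, a hyaluronan receptor that also works at the mitotic spindle, was at -0.40 (adjusted p = 0.0451, limma). Within slide 1 these 4 were at -0.66, -0.68, -0.60 and -0.27, and none of the 5 passed with the slide block. With single arrays left out, Arsb passed in 2 of 6 fits (without De-HA 1 or FeMnSi 1), Gusb in 2 (without FeMnSi 1 or FeMnSi 2), and Naglu and Hmmr in 1 each, the fit without FeMnSi 1. The list had 6 lower with quantile normalization, 1 lower without a filter on dim probes, and, without FeMnSi 1, 6 lower and 5 higher.

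Proteoglycan core proteins, the carriers of the chains, had 3 of 22 genes higher and 1 lower (median 0.02), but 2 higher and 3 lower with quantile normalization, where Sdc4 missed the threshold and Vcan and Srgn were lower. The higher ones were Spock2, a testican, at 0.66 (adjusted p = 0.0292), Gpc4, a glypican, at 0.51 (adjusted p = 0.0442) and Sdc4, a syndecan, at 0.45 (adjusted p = 0.0327, limma). Cspg5, a membrane chondroitin sulfate proteoglycan known mainly from brain, was at -0.98 (adjusted p = 0.0429, limma) on a dim probe well above background on 5 arrays. Within slide 1 these were at 0.38, 0.29, 0.53 and -0.57, none passed with the slide block, and each passed in 1 of the 6 fits with an array left out, that without FeMnSi 1. Sugar and sulfate donors and their transporters had 0 of 15 past the threshold, with 3 higher and 2 lower at an unadjusted p under 0.05 in limma, and the smallest p was that of Uxs1, which makes UDP-xylose, at -0.67 (adjusted p = 0.0551). With quantile normalization 2 of these 15 were lower, Uxs1 (-0.72, adjusted p = 0.0392) and Pgm3 (-0.35, adjusted p = 0.0389, limma). The other enzymes of the pathway had 0 of 15, also with 3 higher and 2 lower unadjusted, and the smallest p was that of the 3-O-sulfotransferase Hs3st6, at -0.78 (adjusted p = 0.0511, limma), which passed with quantile normalization (-0.92, adjusted p = 0.0355).

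**Figure D5:**
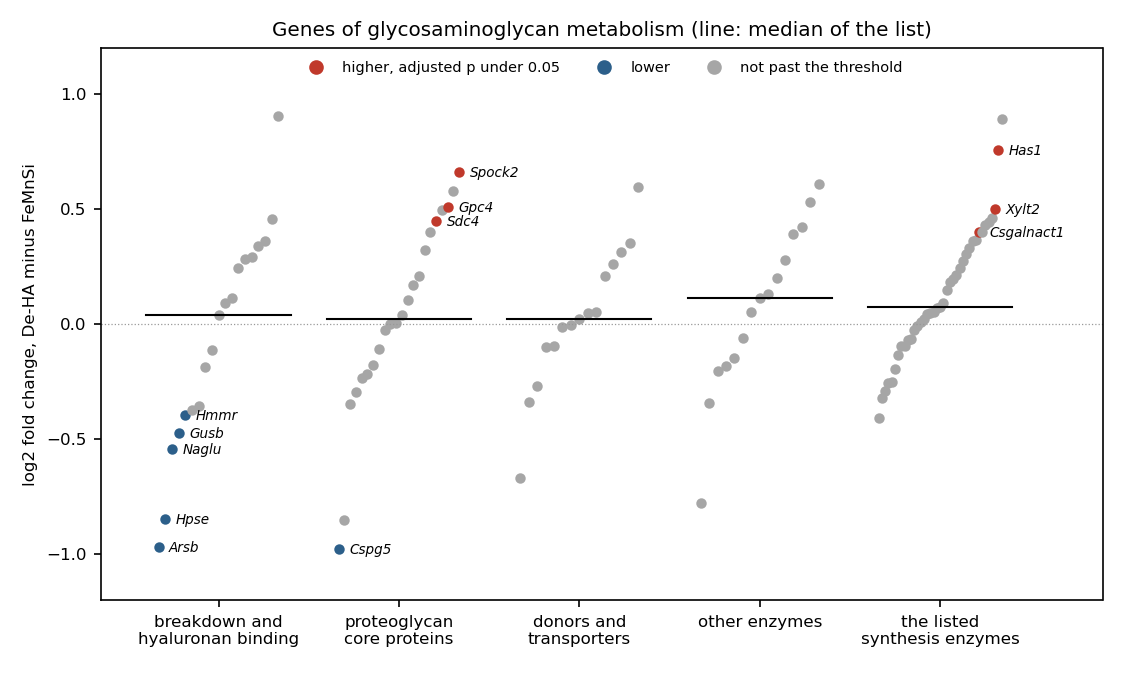
Log2 fold change (De-HA minus FeMnSi) of every tested gene in 4 lists of glycosaminoglycan metabolism and of the 39 tested synthesis enzymes, ordered within each list; red and blue mark genes higher or lower at an adjusted p under 0.05 and lines are list medians. The 5 called genes of breakdown and hyaluronan binding are all below 0 and the 3 called synthesis enzymes above 0, with list medians of 0.04 and 0.08. None of these calls passed with the slide block, and a difference between the lists was not tested.

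Markers of the labelled cell type and of others moved between the same groups. All 9 osteoblast markers were tested, with 4 higher, 1 lower and a summed level, as a multiple of the array's 75th percentile, of 209.7 to 248.9 on De-HA and 178.7 to 208 on FeMnSi. A summed level follows its brightest probes. The osteoblast sum rests mainly on Col1a1 and Col1a2, at 0.44 and 0.46, and neither passed. The lower osteoblast marker was Spp1, at -1.09. Of 6 tested smooth muscle and myofibroblast markers 5 were higher, and the summed level was 67.6 to 69.4 on De-HA and 23.4 to 24.9 on FeMnSi. Chondrocyte markers summed to 21.7 to 22.5 and 15.0 to 15.6, with 1 of 5 tested higher (Col2a1, 1.11) and 1 lower. Comp and Hapln1 were well above background on too few arrays to be tested. Acan was well above background on every array, but its probe had no value on FeMnSi 3 and was dropped. Acan is therefore missing from the tested core proteins too. Macrophage and leukocyte markers summed to 4.08 to 4.53 and 3.06 to 4.35, with 2 of 6 higher and 1 lower. That sum rests mainly on 1 probe of Itgam, at 0.24, which did not pass. Endothelial markers summed to 0.84 to 0.94 and 0.67 to 0.69, 1 of 2 tested being higher, and Cdh5, Emcn, Tek and Tie1 were not above background on any array. Adipocyte markers summed to 0.28 to 0.29 and 0.36 to 0.39, with 1 of 5 tested lower and Adipoq and Cidec not well above background on any array. The lower one was Fabp4, at -1.99, while the other 4 tested had positive fold changes and did not pass. Over all genes, 6.46% were called higher and 4.29% lower. Acta2, Tagln, Myl9, Actg2, Spp1, Fabp4 and Col2a1 passed with the slide block and in all 6 fits that leave out an array. The other called markers missed the threshold with the slide block. Of these, Ibsp and Adgre1 passed in 4 of the 6 fits, and the rest only in the fit without FeMnSi 1. The part of these marker shifts in the differences of Has1, Xylt2 and Csgalnact1 was not tested.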

How the data were processed

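The 6 arrays, 1 per sample, were read by software that the submitters' processing notes name as Agilent Feature Extraction (11.0.1.1). The deposited intensity values are processed signals on a linear scale, background-subtracted and detrended within each array per the file headers. The authors' series matrix holds log2 values, quantile-normalized as the values show, with the steps not given in the sources used here; it was an alternative only. The deposited spot flags (well above background, outlier) were used as filters. An array has 44397 spots, 1377 of them controls.

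Log2 signals were shifted by the array's 75th percentile, outlier spots left out, and probes well above background on at least 3 arrays kept (205 without a value on every array were dropped). Probes were named by RefSeq transcript (27234 of 28684 matched, GRCm38.p6), and the brightest probe by mean stands for the gene. Near-identical paralogs such as Hs3st3a1 and Hs3st3b1 may share signal. limma 3.58.1 in R 4.3.3 compared the groups (lmFit, eBayes, Benjamini-Hochberg), tested on simulated data; data.table (version 1.17.8) was used for reading, and matplotlib 3.10.9 in Python 3.11.15 drew the figures. The number of arrays limits the precision.

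The members and lists were chosen with earlier results of these data known. Array values are given for members called by gene or probe and for Has1, Has2, Has3, Ext1, Ndst1, Sulf1, Sulf2, Chsy1, Chst11, Xylt1 and Ugdh; of other lists, called genes, at most 4 with the smallest p, or the 1 with the smallest p. Array values of Hs2st1, Hs3st3a1, Chsy3, Chst3 and Chst12, and Hmmr, Vcan, Srgn and Pgm3, were chosen after their values were seen. Alternatives changed the scaling, background correction, filter, probe rule, outliers, trend, replicate block, slide and single arrays.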

Additional observations from a re-analysis of the deposited data

How the results depend on the processing

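Counts of members called higher and lower moved with the processing. They were 1 and 1 with quantile normalization and in the series matrix, 1 and 0 with median scaling and with the replicate block, 5 and 0 with an intensity trend, and 0 and 0 without a filter on dim probes, with the slide block and on slide 1 alone. At an unadjusted p under 0.05 limma had 7 higher and 3 lower without that filter, 5 and 2 with the slide block, and 3 and 2 on slide 1 alone, where FeMnSi 1 is assumed to vary like the De-HA arrays. Leaving out each array in turn gave 0 to 12 higher and 0 to 3 lower, the top of both without FeMnSi 1. Over all genes, the calls were 519 of 20590 without the filter, 693 with the replicate block, 180 with the slide block, 36 on slide 1 alone, and 227 to 4611 with an array left out. Has1, Xylt2 and Csgalnact1 had a positive fold change in every fit. Member probes called higher, 2 as reported, were 1 with quantile normalization, 0 without the filter, with the replicate block or with the slide block, and 0 to 11, with 0 to 3 lower, when an array was left out. Of the 71 other pathway genes, 3 higher and 6 lower as reported, the counts were 2 and 12 with quantile normalization, 1 and 10 with median scaling, 2 and 10 of 72 in the series matrix, 6 and 8 with normexp, 7 and 8 of 68 with every array well above background, 7 and 13 with a trend, 0 and 1 without the filter, 0 and 2 with the replicate block, 0 and 0 with the slide block and on slide 1 alone, and 0 to 17 and 1 to 12 with an array left out, the top of both without FeMnSi 1.

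Among the named members recomputed, signs turned for Has3, Sulf1, Chsy1, Xylt1 and Ext1. The members' median was -0.0162 with quantile normalization, -0.0098 with median scaling and -0.0156 in the series matrix. In the same order Has3 was at -0.064, -0.0098 and -0.064 and Sulf1 at -0.18, -0.039 and -0.18. Chsy1 was at -0.037 with quantile normalization and -0.033 in the matrix. Xylt1 was at 0.11 with normexp and 0.29 with the slide block and on slide 1 alone. With an array left out, Ext1 ran from -0.18 to 0.028, Has3 ran from -0.066 to 0.21, Sulf1 ran from -0.14 to 0.23 and Xylt1 from -0.18 to 0.21. Deviations of same-numbered arrays correlated at 0.007, -0.106 and 0.115, and those of differently numbered arrays at -0.25 to 0.226. These values cannot settle whether replicate numbers pair the samples, since a group has 3 arrays and FeMnSi 1 lies on another slide than FeMnSi 2 and 3.

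Normexp was run on median signals, chosen after seeing the data, since the version planned on mean signals could not be run on these scanner tables.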
